A study of Mus musculus with 6 samples.

Results

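Transferrin (Trf), hemopexin (Hpx) and fetuin-A (Ahsg) were followed through 6 libraries of RNA 5′ ends from adult mouse tissues. The 3 genes were picked because their ends were abundant in liver, so their liver levels describe how they were chosen and test nothing. Members were all tags whose 5′ end fell on the gene's strand inside a fixed interval of the mm9 genome: chr9:103108001-103132000, minus strand, for Trf, chr7:112739001-112749000, minus strand, for Hpx, and chr16:22890001-22900000, plus strand, for Ahsg. These intervals held 4247 of the 839877 tags that mapped to 1 listed location, with 2660 tags at Trf, 264 at Hpx and 1323 at Ahsg. No tag lay on the opposite strand of any of the intervals.

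The libraries were made by parallel analysis of RNA ends (PARE), in which an adaptor is joined to polyadenylated RNA that carries a 5′ monophosphate, the mark left by RNA cleavage or by removal of the cap. Each tag is the first 20 or 21 nt of such an RNA, and its count is the number of reads with that sequence. There was 1 library each of whole liver, brain, kidney, lung, ovary and spleen, all of BALB-c background, and the labels gave neither sex nor the number of animals behind a library. The libraries were told apart by barcodes, per the labels' protocols. They held 78952 tags with 1 location in liver, 33382 in brain, 162270 in kidney, 493121 in lung, 29213 in ovary and 42939 in spleen. With 1 library per tissue there was no replicate spread and no test between tissues. The 95% intervals below are exact, cover counting error only, and are too narrow to the extent that amplified reads came from the same molecule.

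All 3 genes encode proteins that hepatocytes secrete into blood plasma. Transferrin carries ferric iron to cells that take it up through the transferrin receptor, and its RNA is also made in the brain by oligodendrocytes and the choroid plexus. Hemopexin binds free heme and delivers it to liver through the receptor Lrp1, while fetuin-A binds calcium phosphate and keeps mineral from precipitating in plasma. A poly(A) signal, most often AATAAA in the DNA sequence, lies a short way upstream of the point where a messenger RNA is cut and given its poly(A) tail.

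The ends on which the results turn are shown first. For Trf these were the most frequent end, the most frequent end of the 3′ region more than 20 nt away from it, and the most frequent end upstream of that region. Capitals mark AATAAA. All sequences were read from the deposited tags and are given 5′ to 3′ along the RNA.
Trf, chr9:103111213-103111232, minus strand, 145 tags: acaaAATAAAaacgactgct
Trf, chr9:103111252-103111271, minus strand, 117 tags: tgtagtcttcgctgctgtgc
Trf, chr9:103114147-103114167, minus strand, 54 tags: ttaaggctgtactgactagcc
For Hpx and Ahsg the first 2 of these choices gave the following ends.
Hpx, chr7:112740250-112740269, minus strand, 12 tags: tagacaaactgaatgcagcc
Hpx, chr7:112740139-112740158, minus strand, 8 tags: atcctAATAAAgccagatgg
Ahsg, chr16:22899492-22899511, plus strand, 57 tags: aaataagaaggctctgagcc
Ahsg, chr16:22899250-22899269, plus strand, 36 tags: tcacagctcgaattccaggt

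Trf ends were found in every library. There were 1891 Trf tags in liver, 30 in brain, 203 in kidney, 453 in lung, 5 in ovary and 78 in spleen. Levels are given as CPM, the number of tags per 1000000 tags with 1 location in the library. The Trf level was 23951 CPM in liver (95% interval 22884 to 25056), 899 in brain (606 to 1283), 1251 in kidney (1085 to 1435), 919 in lung (836 to 1007), 171 in ovary (55.6 to 399) and 1817 in spleen (1436 to 2267). Liver stood far above the rest and ovary was lowest. Between them spleen lay above kidney, and lung and brain lay close to each other, but both placings changed under another scaling, which is given with the brain values. In whole tissue, fewer cells of a type and less RNA per cell cannot be told apart.

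Hpx tags were found in liver, kidney, lung and spleen. Liver had 221 tags, or 2799 CPM (2442 to 3194), against 16 tags in kidney, or 98.6 CPM (56.4 to 160), and 26 tags in lung, or 52.7 CPM (34.4 to 77.3). Spleen had 1 Hpx tag. Brain and ovary had 0, which allows up to 89.9 CPM in brain and 103 CPM in ovary, taking 3 counts as the limit.

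Ahsg had 1051 tags in liver, or 13312 CPM (12519 to 14142). Kidney had 95 tags, or 585 CPM (474 to 716), lung 154 tags, or 312 CPM (265 to 366), and spleen 19 tags, or 442 CPM (266 to 691). Ovary had 3 tags and brain 1. Kidney and spleen could not be ordered for Ahsg, with a kidney-over-spleen ratio of 1.32 (0.803 to 2.29), and kidney and lung could not be ordered for Hpx, with a ratio of 1.87 (0.937 to 3.62). Gene lengths were not used here, so the levels of different genes are not set against each other.

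**Figure D1:**
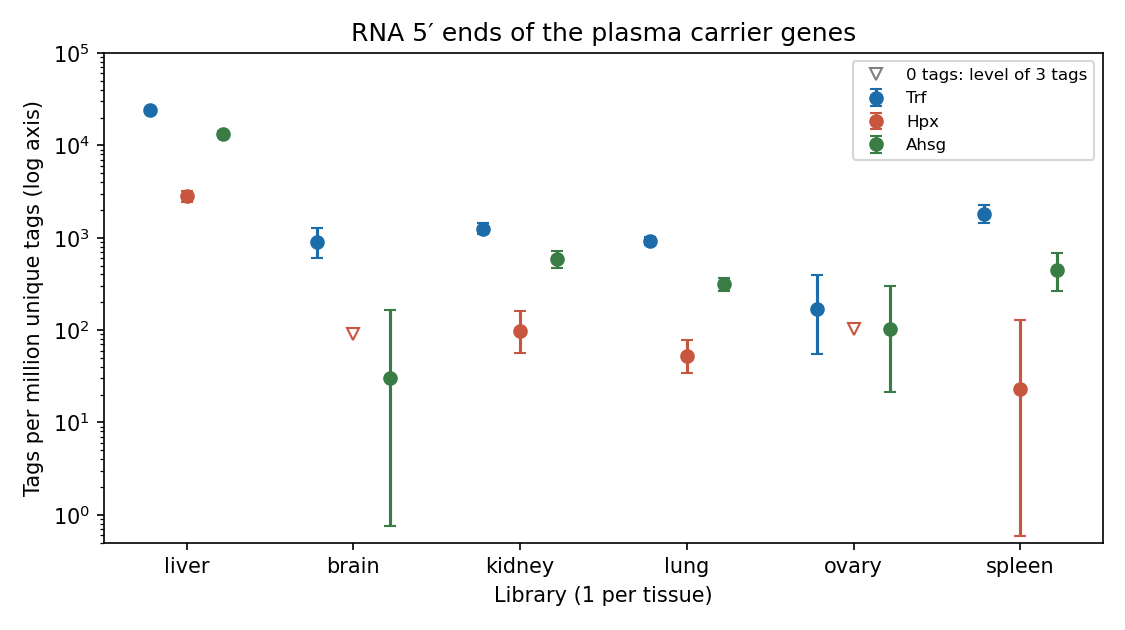
Level in CPM (log axis) of Trf, Hpx and Ahsg in each of the 6 libraries. Points are single libraries, bars are exact 95% Poisson intervals for counting error, and open triangles mark the level of 3 tags where none was found. Liver is highest for each gene. Trf and Ahsg have tags in every library, and Hpx has none in brain and ovary.

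The liver-over-library ratios are given as a description. For Trf the ratio was 26.7 over brain (18.6 to 39.6), 19.1 over kidney (16.6 to 22.2), 26.1 over lung (23.5 to 29.0), 140 over ovary (59.9 to 431) and 13.2 over spleen (10.5 to 16.8). Spleen thus gave the lowest Trf ratio. Scaling by trimmed means of M values raised it to 25.0 (20.0 to 31.8) and left kidney lowest, at 21.6 (18.7 to 25.1). This scaling is meant to allow for a few very abundant ends taking up part of a library. It uses only windows with tags in both libraries compared. Its factors were 1.25 in spleen, 1.41 in brain and 1.57 in ovary, the libraries with the fewest tags. Liver had 0.658, kidney 0.741 and lung 0.743. How far depth entered these factors was not tested. For Ahsg the liver ratio without this scaling was 22.7 over kidney (18.4 to 28.4), 42.6 over lung (36.0 to 50.8) and 30.1 over spleen (19.2 to 50.2). For Hpx it was 28.4 over kidney (17.1 to 50.5) and 53.1 over lung (35.3 to 83.1). The single Ahsg tag in brain gave a ratio of 444 (79.6 to 17569), the 3 Ahsg tags in ovary 130 (44.2 to 630), and the single Hpx tag in spleen 120 (21.4 to 4769). Hpx was at least 31.1-fold higher in liver than in brain and at least 27.3-fold higher than in ovary, with 3 counts set in place of 0. All 3 genes were thus at least 4-fold higher in liver than in each other library. Among 2 kb strand windows with at least 20 tags in both libraries together, 56.4% were that far above brain, 16.7% above kidney, 7.86% above lung, 51.2% above ovary and 43.0% above spleen; the genes were chosen on this contrast, so nothing is read from their count.

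The level of the 3 genes outside liver was set beside that of other liver-rich places in the genome. These were 48 windows of 2 kb, outside the 3 intervals, with at least 100 liver tags and at least 4-fold higher CPM in liver than in each other library, a rule made after the data had been seen. Pooled over these windows, liver exceeded kidney 19.1-fold, lung 37.8-fold and spleen 20.9-fold. The Trf ratio over kidney was also 19.1, while its ratios over lung and spleen were lower than the pooled ones. In lung 38 of the 48 windows, and in spleen 44 of the 48, had a higher liver-over-library ratio than Trf. For Ahsg the counts were 17 windows in kidney, 31 in lung and 16 in spleen, and for Hpx 10 in kidney, 19 in lung and 8 in spleen, the last with 3 counts in place of its 1 spleen tag. Over the whole interval, Trf ends in spleen were thus more frequent, relative to liver, than at most other liver-rich windows, and those of Ahsg and Hpx were not. The 2 sides of the Trf last stretch, described below, differed in this. Liver exceeded spleen 9.66-fold (7.64 to 12.4) in that stretch and 78.3-fold (30.4 to 288) upstream of it, from 4 spleen tags. The gene ratios were taken over whole intervals, which are longer than the 2 kb windows.

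In brain the same windows held little. The 48 windows had 101 brain tags between them, of which 53 lay in 1 window at chr7:20280001-20282000 on the minus strand, and 36 of them had no brain tag. The pooled liver-over-brain ratio was 96.7 with that window and 186 without it, against 26.7 for Trf. Counted by window, 22 of the 48 had a higher ratio than Trf, and the median was 24.2. The 36 windows without a brain tag entered with the count limit in place of none, so this count does not place Trf. The window with 53 brain tags had 25851 CPM in liver and 1588 CPM in brain, against 23951 and 899 for Trf. Brain tags at a liver-rich place were thus not particular to Trf. The share of Trf among the tags of Trf and Ahsg together was also taken within each library. It was 96.8% in brain (83.3 to 99.9, 30 of 31 tags), against 64.3% in liver (62.5 to 66.0), 68.1% in kidney (62.5 to 73.4), 74.6% in lung (71.0 to 78.0) and 80.4% in spleen (71.1 to 87.8). The intervals of brain and liver did not overlap, and neither did those of lung and liver or spleen and liver. Kidney overlapped with liver, and ovary, with 8 tags, could not be placed. The share of Hpx among the tags of Hpx and Ahsg differed less, with 17.4% in liver (15.3 to 19.6), 14.4% in kidney (8.47 to 22.4) and 14.4% in lung (9.66 to 20.4), intervals that all overlapped.

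Trf in brain was not the highest outside liver. The ratio of brain to spleen was 0.495 (0.313 to 0.763), that of brain to kidney 0.718 (0.472 to 1.06), that of brain to lung 0.978 (0.652 to 1.42) and that of brain to ovary 5.25 (2.02 to 17.3). Brain was more than 4-fold above ovary alone, where 29.0% of windows were that far apart. Against kidney, lung and spleen, where brain was not 4-fold higher, the windows that far above were 7.58%, 4.60% and 19.8%. Scaling by trimmed means of M values put spleen below kidney for Trf, with a spleen-over-kidney ratio of 0.861 (0.655 to 1.12) in place of 1.45 (1.10 to 1.89). Under that scaling brain also fell below lung, with a ratio of 0.517 (0.345 to 0.748). Counting each distinct end once put brain above lung, with 1.66 (1.05 to 2.52). A count of distinct ends depends on depth, and Trf had 2.98 tags per end in lung against 1.15 in brain. No order of brain and lung is therefore read from it.

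Trf ends did not spread evenly along the gene. When ends more than 100 nt apart were separated, Trf ends fell into 16 stretches between positions 103130390 and 103111155, Hpx ends into 8 and Ahsg ends into 9. The last stretch, at the 3′ end of the RNA, was chr9:103111155-103111407 for Trf, with 127 distinct ends, chr7:112740145-112740417 for Hpx, with 86, and chr16:22898883-22899497 for Ahsg, with 203. No annotation of mm9 was used here, so the intervals carry the gene names of the selection rule and the stretches are not assigned to exons. No tag of Hpx or Ahsg had its first 16 bases within the first 50 bases of the gene as RefSeq gives them for GRCm38.p6. Tags beginning at the last positions of that span could not be matched. Tags matched in this way to any gene were 0.124% of the liver library.

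In liver 1315 of 1891 Trf tags, or 69.5% (67.4 to 71.6), lay in the last stretch, and the other 576 were divided among all 15 stretches upstream of it. In brain 10 of 30 tags, or 33.3% (17.3 to 52.8), lay there, and the other 20 were spread over 12 of the 15 upstream stretches. Kidney had 102 of 203 tags in the last stretch, or 50.2% (43.2 to 57.3), and lung 375 of 453, or 82.8% (79.0 to 86.1). Spleen had 74 of 78, or 94.9% (87.4 to 98.6), and ovary 5 of 5. The libraries thus ran from mostly upstream ends in brain to almost none in spleen, and of these 5 libraries with 30 or more tags only the intervals of brain and kidney overlapped.

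**Figure D2:**
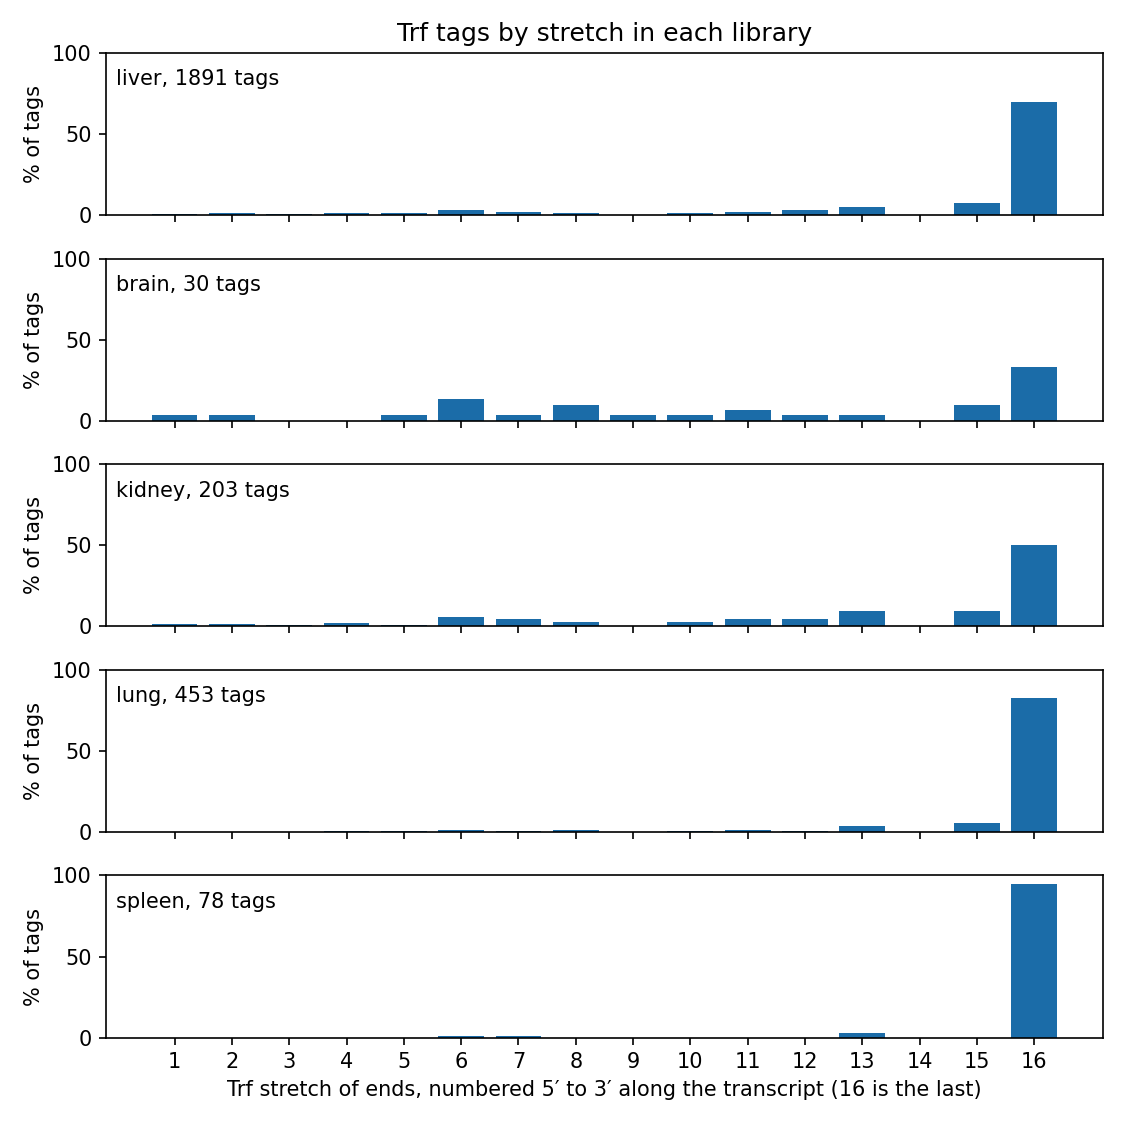
Share of Trf tags (%) in each of the 16 stretches of ends, numbered 5′ to 3′ along the RNA, in the 5 libraries with 30 or more Trf tags. The last stretch holds 94.9% of tags in spleen and 33.3% in brain, where the other 20 tags are scattered over 12 upstream stretches.

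The number of tags per end entered into this. With each distinct end counted once, the share in the last stretch was 26.9% in liver (22.7 to 31.4, 113 of 420 ends) and 26.9% in brain (11.6 to 47.8, 7 of 26 ends). In liver an end of the last stretch had on average 11.6 tags and an upstream end 1.88, against 1.43 and 1.05 in brain. A share of distinct ends depends on how deeply a library was read, and with 1891 tags in liver and 30 in brain these equal shares do not show that the ends were spread alike. Kidney, lung and spleen kept their order on this measure, with 36.1% of ends in kidney (27.6 to 45.3), 55.3% in lung (47.0 to 63.3) and 87.5% in spleen (71.0 to 96.5).

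Brain and the other tissues were compared again on each side of this boundary. Upstream of the last stretch, Trf had 7296 CPM in liver (6712 to 7916), 599 in brain (366 to 925), 622 in kidney (507 to 756), 158 in lung (125 to 197) and 93.2 in spleen (25.4 to 239). There brain did not differ from kidney beyond counting error, with a ratio of 0.963 (0.564 to 1.57), and exceeded lung 3.79-fold (2.19 to 6.25) and spleen 6.43-fold (2.15 to 25.9). In the last stretch brain had 300 CPM (144 to 551), and lay below kidney, lung and spleen, with ratios of 0.477 (0.222 to 0.913), 0.394 (0.187 to 0.733) and 0.174 (0.0801 to 0.338). With trimmed means of M values the upstream ratio of brain was 0.507 to kidney (0.297 to 0.825), 2.0 to lung (1.16 to 3.30) and 5.71 to spleen (1.91 to 23.0). Where brain stood among the tissues for Trf thus turned on which part of the gene was counted, and only 20 brain tags lay upstream.

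The share of Ahsg tags in the last stretch varied less between libraries. For Ahsg the last stretch held 95.5% of tags in liver (94.1 to 96.7), 91.6% in kidney (84.1 to 96.3), 97.4% in lung (93.5 to 99.3) and 89.5% in spleen (66.9 to 98.7), and the intervals overlapped. The last stretch of Ahsg was also the longest, at 615 nt, against 253 nt for Trf and 273 nt for Hpx. For Hpx it held 72.9% of tags in liver (66.5 to 78.6), 24 of 26 tags in lung (92.3%, 74.9 to 99.1) and 8 of 16 in kidney (24.7% to 75.3%). Kidney had the lower value and lung the higher one for Hpx as for Trf, with few Hpx tags in either.

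**Figure D3:**
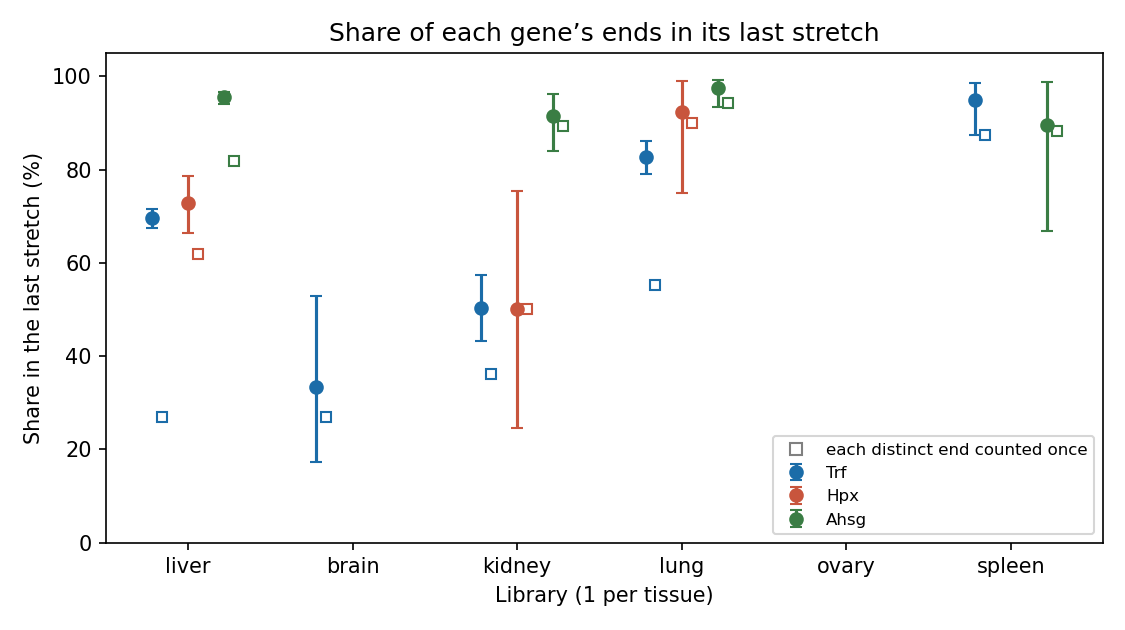
Share (%) of each gene's tags in its last stretch in libraries with 10 or more tags of that gene. Filled points with bars are shares of tags with exact 95% intervals, and open squares are shares with each distinct end counted once. For Trf the share is 69.5% of tags and 26.9% of distinct ends in liver, and 33.3% of tags and 26.9% of distinct ends in brain.

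In the other libraries most Trf tags, and most Ahsg tags, lay at ends that were also seen in liver, with the lowest Trf share in brain. In spleen all 78 Trf tags lay exactly at an end also found in liver, as did 414 of 453 in lung, or 91.4% (88.4 to 93.8), 165 of 203 in kidney, or 81.3% (75.2 to 86.4), and 5 of 5 in ovary. In brain 16 of 30 did, or 53.3% (34.3 to 71.7), and 25 of 30 within 1 nt. Brain had the lowest value on each side of the last-stretch boundary as well, from few tags. Upstream of the last stretch 8 of 20 brain tags matched a liver end (19.1% to 63.9%), against 64.4% in kidney (54.2 to 73.6) and 65.4% in lung (53.8 to 75.8), intervals that overlap with that of brain. In the last stretch 8 of 10 brain tags did (44.4% to 97.5%), against 98.0% in kidney (93.1 to 99.8) and 96.8% in lung (94.5 to 98.3). For Ahsg, 86.3% of kidney tags (77.7 to 92.5), 90.9% of lung tags (85.2 to 94.9) and 15 of 19 spleen tags lay at liver ends, and for Hpx 8 of 16 kidney tags and 12 of 26 lung tags did. The liver ends available for a match numbered 420 for Trf, 123 for Hpx and 225 for Ahsg. In the 253 nt of the Trf last stretch liver had 113 ends, and 74 of the 78 spleen tags lay there. The share of matches that depth and position alone would give, and the share over all genes, were not computed. No likeness between tissues is therefore read from these values. Of the 505 distinct Trf ends, 346 were found in 1 library and 2 in all 6, whereas none of the 141 Hpx ends was found in more than 3 libraries and none of the 253 Ahsg ends in more than 4.

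Within liver no single end dominated. The strongest Trf end, at position 103111232, had 103 of 1891 liver tags, or 5.45% (4.47 to 6.57), and the 10 strongest of its 420 ends together held 33.6%. The strongest Hpx end, at position 112740269, had 11 of 221, or 4.98% (2.51 to 8.73), and the strongest Ahsg end in liver, at position 22899491, had 41 of 1051, or 3.90% (2.81 to 5.26). Ends with 1 tag made up 57.1% of Trf ends, 67.5% of Hpx ends and 47.6% of Ahsg ends in liver. In spleen Trf was more concentrated, with 15 of 78 tags, or 19.2% (11.2 to 29.7), at position 103111229 and 10 ends holding 70.5% of its tags.

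Copies of AATAAA were looked for in the tags themselves. Overlapping tags were joined into 2067 covered bases for Trf, 832 for Hpx and 1148 for Ahsg, and AATAAA was searched on the transcript strand only. Each last stretch held 1 copy, called the signal of its gene below, and whether it was the one in use was not tested. Trf stretch 14 also held AATAAA, covered by 1 tag. The variant ATTAAA was searched too, and 1 copy lay in the Trf last stretch, 150 nt upstream of AATAAA. From 30 to 1 nt upstream of that copy lay 84 Trf tags. For each signal the surrounding 30 bases are shown, because the ends of the 3 genes lie differently around it.
Trf, chr9:103111211-103111240, minus strand: cacagagcacaaAATAAAaacgactgctga
Hpx, chr7:112740136-112740165, minus strand: cattttcatcctAATAAAgccagatggttt
Ahsg, chr16:22899453-22899482, plus strand: aatctagccataAATAAAagtgcccacacg

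Trf ends gathered at the signal itself. The end with the most tags over all libraries lay 4 nt upstream of the first base of AATAAA and had 103 tags in liver, 2 in brain, 6 in kidney, 22 in lung, 0 in ovary and 12 in spleen. The end 1 nt upstream had 94 in liver, 0 in brain, 6 in kidney, 25 in lung, 1 in ovary and 15 in spleen, and the end at the first base of the signal had 55 in liver, 11 in lung, 6 in spleen and 0 in brain, kidney and ovary. Between 10 nt upstream and 5 nt downstream of that base lay 27.0% of liver Trf tags (25.0 to 29.1), 7 of 30 brain tags, or 23.3% (9.93 to 42.3), 12.3% of kidney tags (8.13 to 17.6), 26.7% of lung tags (22.7 to 31.0), 5 of 5 ovary tags and 69.2% of spleen tags (57.8 to 79.2). In brain these 7 tags were among the 10 in the last stretch. From 6 to 40 nt downstream there were 3 Trf tags in all libraries together, all of them in liver. Single tags lay as far as 66 nt downstream in liver and 73 nt in lung, so the RNAs that gave them ran past those points. A tag needs 20 or 21 nt that match the genome, so ends closer than that to the poly(A) tail could not be listed. Where the tail of Trf RNA begins was not determined, so this low count is not read as a lack of ends there. A further group of ends lay around 43 nt upstream, where 1 end had 93 tags in liver, 0 in brain, 5 in kidney, 18 in lung, 0 in ovary and 1 in spleen, so that spleen had 12 tags at the end by the signal and 1 at this one, against 103 and 93 in liver.

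Ahsg ends were placed otherwise around the AATAAA of their last stretch. Between 10 nt upstream and 5 nt downstream of the first base of its signal lay 1.62% of liver tags (0.945 to 2.58), whereas 27.2% (24.5 to 30.0) lay 6 to 40 nt downstream. The downstream share was 41.6% in lung (33.7 to 49.8), 13.7% in kidney (7.49 to 22.3), 7 of 19 tags in spleen and 2 of 3 in ovary. The strongest of these ends lay 27 nt downstream, with 40 tags in liver, 0 in brain, 0 in kidney, 16 in lung, 1 in ovary and 0 in spleen, and the next lay 26 nt downstream, with 41 in liver, 0 in brain, 5 in kidney, 6 in lung, 0 in ovary and 0 in spleen. The 20-nt tag of the strongest end matched the genome as far as 46 nt downstream of the signal's first base, so the RNAs that gave it reached at least that far. Whether another signal, outside the covered bases, served these RNAs was not tested. The Hpx share at the signal, 9.05% of liver tags (5.62 to 13.6), lay between those of Trf and Ahsg, and 1 liver tag lay downstream. Its strongest liver end lay 116 nt upstream with 11 tags, and an end 5 nt upstream had 7. These counts are too low to rank the Hpx ends.

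**Figure D4:**
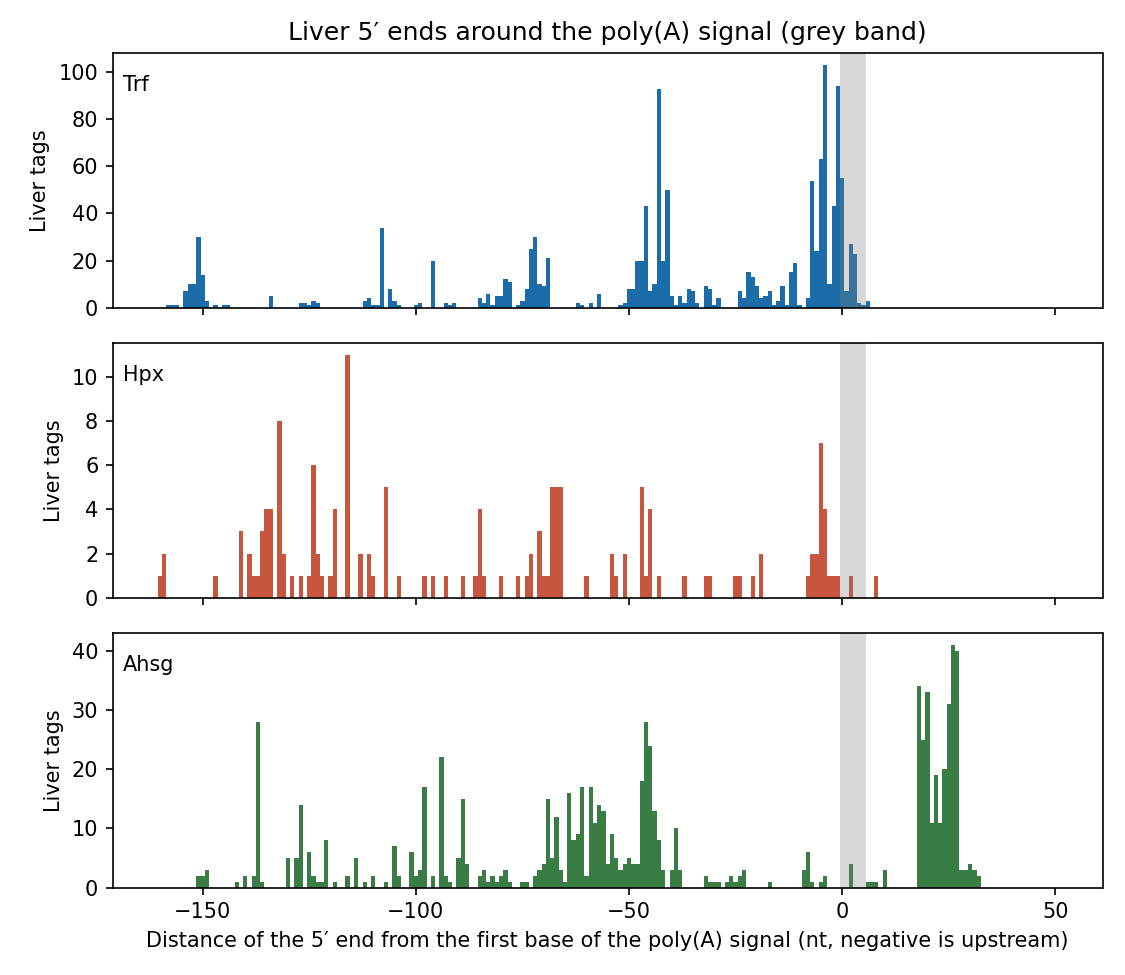
Number of liver tags by distance (nt) of their 5′ end from the first base of the AATAAA poly(A) signal in Trf, Hpx and Ahsg. The grey band is the signal. Trf ends peak at and just upstream of it, Ahsg ends form a block 18 to 32 nt downstream, and the most frequent Hpx end is 116 nt upstream.

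Because AATAAA can be read in any tag, the Trf values were set beside all other tags of each library. The measure was the share of tags in which the first AATAAA began at the 5′ end or up to 10 nt after it. Of Trf tags it held for 23.8% in liver (21.9 to 25.8), 7 of 30 in brain, 11.8% in kidney (7.72 to 17.1), 23.0% in lung (19.2 to 27.1), 4 of 5 in ovary and 62.8% in spleen (51.1 to 73.5). Of tags outside the 3 intervals it held for 8.44% in liver, 3.54% in brain, 2.05% in kidney, 7.80% in lung, 3.09% in ovary and 34.6% in spleen. The spleen library as a whole therefore stood apart in the same direction as its Trf tags, and kidney was lowest on both. The Trf share lay above that of the other tags in each library. Hpx, with 8.60% in liver (5.26 to 13.1), was level with the rest of that library, and Ahsg, with 1.24% (0.660 to 2.11), was below it. Counting each distinct end once, Trf had 2.62% of its ends in liver, 15.4% in brain, 4.92% in kidney, 6.58% in lung and 28.1% in spleen. For ends outside the 3 intervals it was 6.40% in liver, 3.70% in brain, 2.08% in kidney, 4.68% in lung and 26.7% in spleen. By distinct ends Trf was thus below the rest of the library in liver, where the few positions so close to its signal gave 11 of 420 ends. The part that this property of the spleen library plays in its Trf level and its last-stretch share was not tested. In the upstream stretches, which lie away from the signal, spleen had 4 Trf tags.

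**Figure D5:**
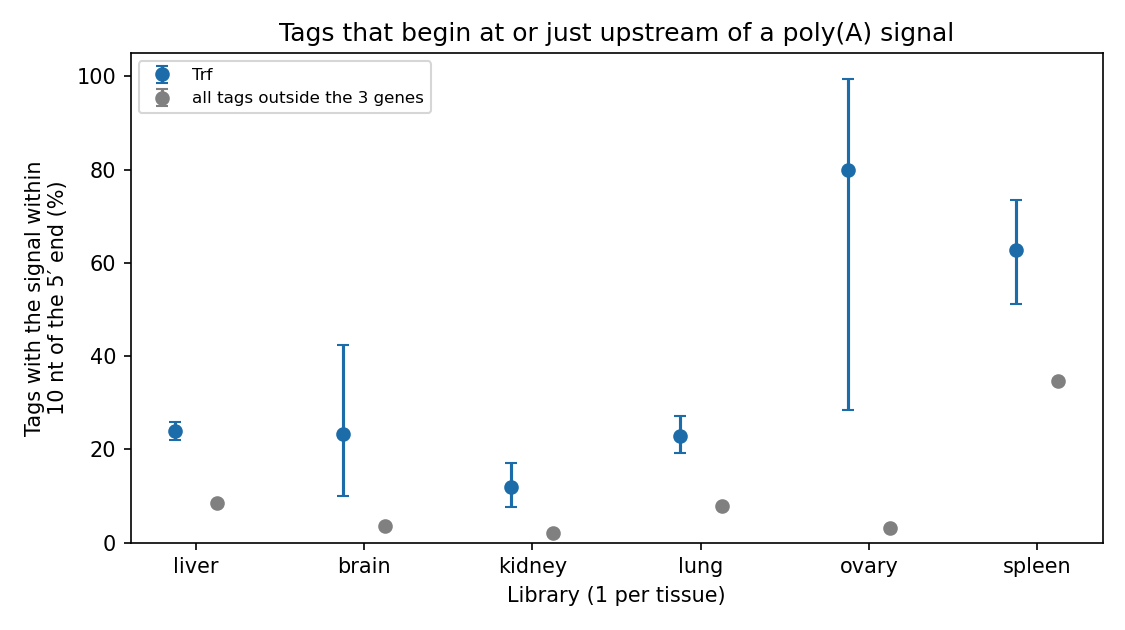
Share of tags (%) in which an AATAAA begins at the 5′ end or up to 10 nt after it, for Trf and for all tags outside the 3 gene intervals, in each library. Bars are exact 95% intervals, hidden by the points for the larger group. Trf lies above the other tags in every library, and both are high in spleen (62.8% and 34.6%).

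The profile of each gene over the 6 libraries was compared with that of every 2 kb window with at least 50 tags, by Pearson's correlation of log2(CPM + 10). All values share the same 6 libraries and their depths, and the correlations are descriptions over 6 points of which liver is the highest. Trf came closest to chr3:82836001-82838000 on the plus strand, with r = 0.993, chr4:62804001-62806000 on the minus strand, with 0.981, and chr1:122008001-122010000 on the minus strand, with 0.977. Hpx came closest to chr7:13572001-13574000 on the minus strand, with 0.999, and Ahsg to chr9:46040001-46042000 on the minus strand, with 0.990. Of the 3 genes with each other, Hpx and Ahsg were the most alike, with r = 0.971, against 0.907 for Trf and Hpx and 0.868 for Trf and Ahsg. A correlation over 0.9 was reached with Trf by 1.79% of windows, with Hpx by 4.24% and with Ahsg by 4.09%.

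Other genes of iron and heme handling, and markers of the cell types in these tissues, could be counted only where a tag matched the first 50 bases of a RefSeq gene, which is a small part of each library. Of 24 iron and heme genes, 18 had such a sequence, and these gave 2 tags in liver, 1 in lung, 1 in ovary and 0 in brain, kidney and spleen. The 6 oligodendrocyte and 3 choroid plexus markers with a sequence gave 0 tags in all 6 libraries, brain included, so the cells that carried Trf in brain could not be followed here. The hepatocyte markers gave 1 tag in liver and 1 in kidney, which leaves the liver label unchecked by this route. Of the 4 kidney markers, all with a sequence, Gpx3 gave 1 tag, in kidney, and Umod and Slc34a1 gave 0 in every library. The remaining marker, Kap, a protein of kidney proximal tubule, had 1056 tags in kidney, 145 in lung, 1 in liver, 0 in brain, 2 in ovary and 3 in spleen. That was 6508 CPM in kidney and 294 CPM in lung, so start-proximal ends of a kidney gene were also found in lung.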

How the data were processed

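The authors deposited 1 list of mapped tags per tissue, aligned to mm9 with Bowtie, per the submitters' processing notes; its version and settings were not stated. Reads were counted from the number that the authors appended to each tag's sequence in a text field of the deposited lists, a unit listed as other. The score column that the authors deposited is 70 per read up to a ceiling of 999 and was not used as a measurement. Sequences listed at 2 locations (8.62% to 17.2% of tags) were left out, and levels are tags per 1000000 of the remainder (CPM). Intervals are exact Poisson for levels, conditional binomial for ratios and Clopper-Pearson for shares. Windows of 2 kb gave the background. The interval and fold routines were tested on simulated data. Trimmed means of M values were computed in Python 3.11.15, with numpy 2.4.6, pandas 2.3.3 and scipy 1.17.1. The genes and lists were chosen with earlier results of these data known. The naming rule was the 3 genes in full, up to 5 ends per gene and library, and listed genes by role. Matching tags to proteins, reading frames and shares of the 3′ coding region were not run, since no protein table was used here; listed genes were found by 16 bases matching RefSeq gene starts instead, and nearest profiles are given by window. Kap, and the stretches and signal windows, were chosen after their values were seen. Of the other marker lists with a start sequence, neuron, ovary and spleen markers gave 0 tags in every library, lung markers gave 23 in lung and 0 elsewhere, blood markers gave 81 in lung, 2 in liver, 1 in brain, 2 in kidney and 0 in ovary and spleen, and the 20 hepatocyte plasma protein genes 1 in kidney and 0 in liver.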

Additional observations from a re-analysis of the deposited data

Results flagged for a closer look

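Tags listed at 2 genomic locations were left out of all levels above. In liver 6 such tags lay in the Trf interval and 5 in the Ahsg interval, more than the 3 counts that an observation of 0 allows. The other libraries had at most 3 in either interval, and Hpx had none in any library. Which location these reads came from was not tested.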

How the results depend on the processing

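Of 101 recomputed values, 73 stayed within the counting interval of the reported value and 27 moved further. Of ratios whose interval excluded 1, 1 changed direction, that of spleen to kidney for Trf; the brain-over-lung ratio, whose interval held 1, came out on either side of it. The cause of these moves was not tested unless given. Keeping sequences listed at 2 locations gave liver levels of 21957 CPM for Trf and 12223 for Ahsg. With trimmed means of M values, whose factors ran from 0.658 in liver to 1.57 in ovary, liver levels were 36423 for Trf, 4257 for Hpx and 20243 for Ahsg, and Trf was 57.0-fold higher in liver than in brain and 25.0-fold higher than in spleen. The same scaling turned the Trf spleen-over-kidney ratio to 0.861 (0.655 to 1.12), and gave Trf brain ratios of 0.379 to kidney and 0.517 to lung over the whole gene, and of 0.507 to kidney and 2.0 to lung upstream of the last stretch. Counting each distinct end once gave liver levels of 9198 for Trf and 4928 for Ahsg, Trf liver ratios of 9.90 to brain, 8.16 to kidney and 7.34 to spleen, an Ahsg liver-over-kidney ratio of 9.52, a Trf brain-over-lung ratio of 1.66 over the whole gene and 0.807 in the last stretch, and last-stretch shares in liver of 26.9% for Trf, 81.8% for Ahsg and 61.8% for Hpx. Summing ends within 1 nt of the strongest gave 9.31% of liver Trf tags and 10.7% of liver Ahsg tags. Accepting a liver end within 1 nt raised the Trf brain tags at liver ends to 83.3%, and requiring 2 liver tags per end lowered it to 30.0%. A gap of 200 nt gave Hpx a last-stretch share of 90.5% in liver, because stretches 6 and 7 of Hpx were then joined to its last stretch. The alternatives for the last stretch and for the ratios between tissues, other than Trf liver to brain, Trf brain to spleen, and Hpx and Ahsg liver to kidney, were chosen after seeing the data. The alternatives for reading frame and for the 3′ part of the coding sequence were not run. No paired analysis was possible because there was 1 library per tissue. Depth limits brain and ovary most, where 3 counts are 89.9 and 103 CPM, and statements on Trf in brain rest on 30 tags.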
